A study of Mus musculus with 13 samples.

Results

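Splenic CD4+ T helper cells from 2 treated Eomes-TKO mice were compared with Eomes-GFP-negative cells from 3 treated Eomes-GFP mice, all after an agonist antibody against 4-1BB and all low in Eomes transcript. The libraries were picked by their labels, and they make up 5 of the 13 libraries of the series. Of 56748 genes in the table, 14059 passed the filter on low counts and were tested. Mice of both lines were also crossed to a Foxp3-Thy1.1 reporter and bore the plasma cell tumour Vk12653 (multiple myeloma), given on day 0. Every animal received NK1.1-depleting antibody at 50 µg on days -2 and 5, then 20 µg of either the 4-1BB agonist or control IgG on days 10, 13 and 16, and was killed on day 18. The sort kept cells positive for the T cell receptor and CD4 and negative for Thy1.1, and so left out cells bearing the Foxp3 reporter. Treated Eomes-GFP cells were then divided by GFP, whereas treated Eomes-TKO cells were not, so the gates differ between the sides of this comparison. The remaining groups are the GFP-positive cells of the same 3 treated Eomes-GFP mice (3 libraries), undivided cells of Eomes-GFP mice given IgG (2 libraries) and undivided cells of Eomes-TKO mice given IgG (3 libraries). The labels do not describe how the Eomes-TKO allele was made, which cells it affects or the age of the mice.

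4-1BB, encoded by Tnfrsf9, is a costimulatory receptor of activated T cells. Its ligation, like that of the T cell receptor, switches on NF-kB and MAP kinase signalling, and those pathways induce their own brakes: Tnfaip3 (A20) edits ubiquitin chains upstream of NF-kB, Nfkbia (IkB-alpha) holds NF-kB in the cytoplasm, Dusp phosphatases switch off MAP kinases, and Rgs proteins shorten chemokine receptor signals. Immediate early genes such as Fos, Junb and the Nr4a receptors rise soon after stimulation without new protein synthesis. Eomes, a T-box factor, is known for its part in cytotoxic and memory programmes of lymphocytes.

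Depth ran from 6080975 to 10881146 estimated counts in the 13 libraries, with 17127 to 18252 genes having at least 1 count, and levels are given as TMM-scaled CPM, the count of a gene per total count of its library. Eomes stood at 3.59 and 8.03 CPM in the treated Eomes-TKO libraries, at 3.54, 1.83 and 2.26 CPM in the GFP-negative libraries and between 570 and 706 CPM in the GFP-positive ones. The Eomes transcript was therefore low on both sides, at 23 and 77 counts in Eomes-TKO and 15 to 29 in GFP-negative cells, and the transcript level alone does not show which part of the gene is altered. Cd4 was at 668 and 915 CPM against 815 to 874 CPM, and Foxp3 at 2.65 and 1.98 CPM against 1.10 to 1.95 CPM. Correlation of log2 CPM across genes, which are not independent replicates, was 0.966 between the 2 Eomes-TKO libraries and 0.979 to 0.981 between GFP-negative libraries. The Eomes-TKO libraries were the less alike: of 10803 genes (mean log2 CPM 2 or more), 6.63% differed over 2-fold between them, against 1.29% to 1.48% for the pairs of GFP-negative libraries. The labels give each library of a group its own animal prefix and say no more about how replicates arose. P-values rest on a spread estimated from all 13 libraries in 5 groups, not on that of the compared libraries alone.

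Treated Eomes-TKO cells held less of 5 transcripts of signal feedback and the immediate early response than treated GFP-negative cells. Tnfaip3, Nr4a2, Dusp5, Rgs1 and Per1 each fell by about 1 on the log2 scale, and 1 transcript, the processed pseudogene Gm33707, rose. All 6 had an adjusted p of 0.038 (edgeR quasi-likelihood test, Benjamini-Hochberg adjustment over 14059 genes), and the same threshold called 0.0356% of genes lower and 0.00711% higher. At an unadjusted p under 0.05, 474 genes (3.37%) were lower and 506 (3.6%) were higher, so most of the transcriptome did not separate beyond the spread between libraries. Leaving out single libraries moved these counts to between 321 and 892 lower and between 240 and 896 higher genes, both highest without Eomes-TKO library 2, lowest for lower genes without GFP-negative library 2 and lowest for higher genes without Eomes-TKO library 1. The median log2 difference over all genes was 0.00. The lower calls depended on single libraries: none was called without GFP-negative library 1 or 3, 1 without GFP-negative library 2, 4 without Eomes-TKO library 1 and 13 without Eomes-TKO library 2. No gene was called in either direction with upper-quartile scaling or against a fold threshold of 1.5, although the direction of the 5 held in all 16 alternatives run.

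**Figure D1:**
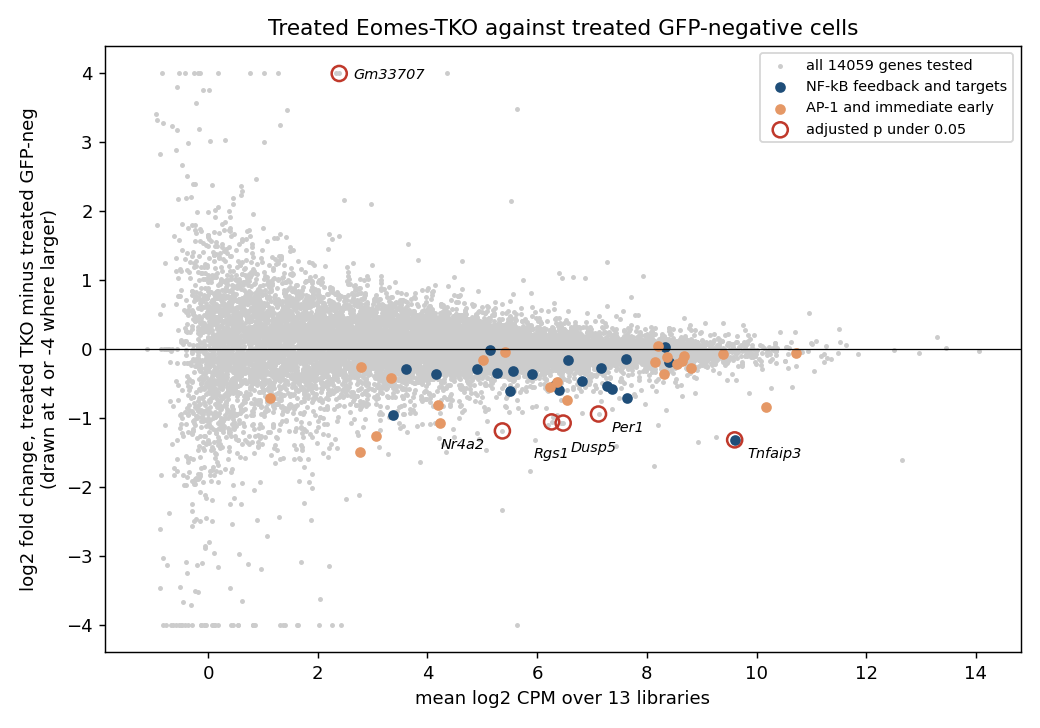
Log2 difference of treated Eomes-TKO minus treated GFP-negative cells (vertical axis) against mean log2 CPM over 13 libraries (horizontal axis) for 14059 genes, with NF-kB feedback genes in blue, immediate early genes in orange and the 6 genes past the threshold ringed. All NF-kB genes but 1 (Cyld, at 0.04) and all immediate early genes but 1 (Btg2, at 0.04) lie below 0, most of them by less than 1.

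Tnfaip3, the ubiquitin-editing brake on NF-kB, was at 623 and 443 CPM in Eomes-TKO cells and at 1455, 1201 and 1328 CPM in GFP-negative cells. The groups were well apart, and Tnfaip3 fell by 1.32 on the log2 scale (SE 0.20, edgeR adjusted p = 0.038). On the GRCm38 build of GENCODE M21, an older build than that of the files, Tnfaip3 lies on chromosome 10 at 19000910-19015657, minus strand. The bases before a RefSeq start of Tnfaip3 are shown because they hold matches to sites for both factor families that act on early response genes. They lie inside the gene interval just given, outside its annotated exons. Capitals mark, in order, an AP-1 site (TGANTCA), a match to the NF-kappaB consensus on the gene's strand and a match on the other strand.
Tnfaip3 chr10:19015411-19015547 (minus strand, GRCm38.p6, RefSeq): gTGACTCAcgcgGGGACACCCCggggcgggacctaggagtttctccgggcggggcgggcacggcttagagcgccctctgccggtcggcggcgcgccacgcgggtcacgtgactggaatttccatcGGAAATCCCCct
The AP-1 match began 136 bases before the start, and the NF-kappaB matches 125 and 12 bases before it. Among 32851 RefSeq promoters scanned over 250 bases on both strands, 7.25% held the NF-kappaB consensus and 6.75% the AP-1 site.

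Dusp5, a nuclear phosphatase that inactivates ERK, was at 55.0 and 58.9 CPM in Eomes-TKO cells and at 143, 97.8 and 119 CPM in GFP-negative cells. The groups did not overlap, and Dusp5 fell by 1.07 (SE 0.16, edgeR adjusted p = 0.038). The antisense gene Gm50394 overlaps its first exon, and whether counting used strand is not given in the sources used here, but Gm50394 was at 1.09 and 1.25 CPM against 1.10, 1.10 and 1.63 CPM. Dusp5 lies on chromosome 19 at 53529109-53542431, plus strand (GRCm38). The bases before its start are shown for 2 adjacent CArG boxes in capitals, the site of serum response factor, through which ERK signals reach immediate early genes.
Dusp5 chr19:53528895-53529108 (plus strand, GRCm38.p6, RefSeq): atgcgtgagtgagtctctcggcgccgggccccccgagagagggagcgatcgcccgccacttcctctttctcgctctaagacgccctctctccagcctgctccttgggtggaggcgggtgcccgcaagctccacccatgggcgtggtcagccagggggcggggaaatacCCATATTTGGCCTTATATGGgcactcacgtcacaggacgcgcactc
A CArG box was present in 1.47% of the promoters scanned. No letters of the 3 motifs were found in the RefSeq windows of Per1, Nr4a2 and the other Tnfaip3 start, which says nothing of what binds there, and Rgs1 is named only. A match is a description of the sequence and no measure of binding.

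Rgs1, which speeds the shut-off of G proteins below chemokine receptors, was at 30.9 and 39.4 CPM in Eomes-TKO cells and at 72.0, 76.8 and 71.8 CPM in GFP-negative cells. The 3 GFP-negative values lay close together and above both Eomes-TKO values. Rgs1 fell by 1.06 (SE 0.14, edgeR adjusted p = 0.038), and its gene lies on chromosome 1 at 144242296-144249242. Nr4a2, an orphan nuclear receptor induced by antigen receptor signalling, was low throughout the comparison, at 7.03 and 7.20 CPM against 16.5, 15.1 and 17.1 CPM. It fell by 1.19 (SE 0.19, edgeR adjusted p = 0.038) and lies on chromosome 2 at 57106830-57124003. Of the 5 lower genes, Nr4a2 was called in the fewest alternatives (4): its adjusted p was 0.24 with the animal as a block and 0.23 with limma-voom (4.92e-06 to 1 over 16 alternatives), and it was not called in any of the 5 fits that left out a library. Per1, a repressor in the circadian clock that is also an immediate early gene, was at 127 and 108 CPM against 243, 212 and 223 CPM. The Per1 groups did not overlap, and Per1 fell by 0.94 (SE 0.14, edgeR adjusted p = 0.038). Per1 lies on chromosome 11 at 69095217-69109960.

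**Figure D2:**
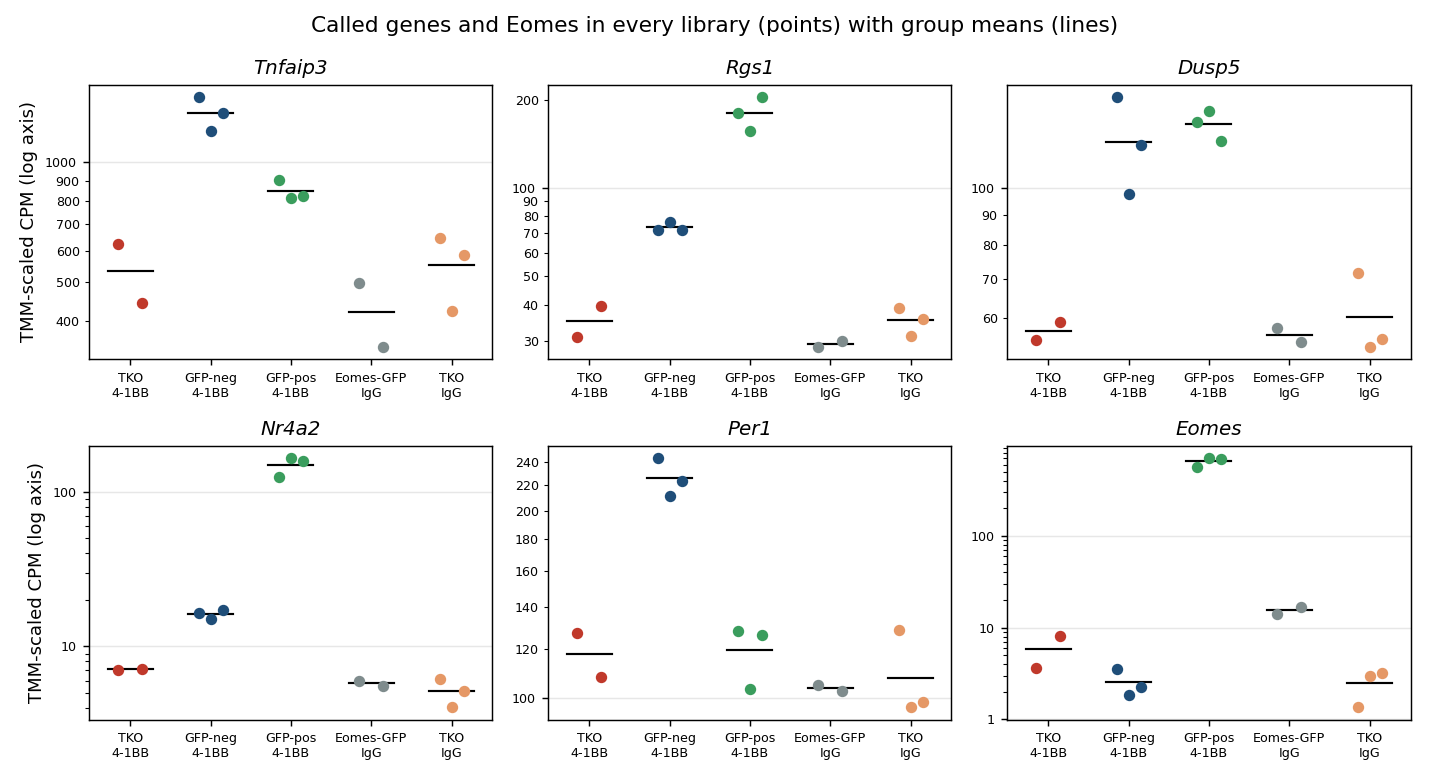
TMM-scaled CPM on a log axis for the 5 genes lower in treated Eomes-TKO cells and for Eomes, with 1 point per library and a line at the group mean (2 treated Eomes-TKO, 3 GFP-negative, 3 GFP-positive, 2 Eomes-GFP IgG, 3 Eomes-TKO IgG). For each of the 5, both treated Eomes-TKO points lie below all 3 GFP-negative points and near the points of the IgG groups, while the GFP-positive points are above the GFP-negative ones for Rgs1 and Nr4a2 and below them for Tnfaip3 and Per1.

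The IgG groups place these values. Rgs1 stood at 28.74 and 29.96 CPM in Eomes-GFP cells after IgG and at 31.3 to 38.9 CPM in Eomes-TKO cells after IgG, beside 30.9 and 39.4 CPM in treated Eomes-TKO cells. Against IgG, Rgs1 rose in GFP-negative cells by 1.32 (SE 0.14, edgeR adjusted p = 0.0015), and its difference between treated and IgG Eomes-TKO cells was 0.00 (SE 0.14, edgeR adjusted p = 1). Tnfaip3 rose by 1.65 in GFP-negative cells over IgG (SE 0.21, edgeR adjusted p = 0.0037), against a difference of −0.05 (SE 0.19) in Eomes-TKO cells. The same contrast gave a rise of 1.10 for Dusp5, 1.12 for Per1 and 1.49 for Nr4a2 in GFP-negative cells, all past the threshold. In Eomes-TKO cells it gave −0.08, 0.12 and 0.48, none past it. These contrasts share libraries with the main comparison, and the GFP-negative side was divided by GFP while its IgG control was not. Tested directly, the difference of the 2 differences passed for 0% of the 14059 genes (416 had an unadjusted p under 0.05). It was −1.32 for Rgs1 (SE 0.20, edgeR adjusted p = 0.081), −1.71 for Tnfaip3 (SE 0.28, adjusted p = 0.117), −1.17 for Dusp5 (adjusted p = 0.295), −0.9999 for Per1 (adjusted p = 0.362) and −1.01 for Nr4a2 (adjusted p = 1).

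GFP-positive cells did not place the 5 genes in a single order. Rgs1 (156 to 204 CPM) and Nr4a2 (124 to 165 CPM) were higher there than in GFP-negative cells, by 1.30 (SE 0.12) and 3.19 (SE 0.15). Tnfaip3 (812 to 906 CPM) and Per1 (103 to 128 CPM) were lower, by −0.65 (SE 0.17) and −0.92 (SE 0.12), and these 4 differences passed the threshold (largest edgeR adjusted p = 0.0097). The GFP-positive and GFP-negative libraries come from the same mice, and this test did not pair them. Dusp5 at 121 to 136 CPM differed by 0.10 (SE 0.14, edgeR adjusted p = 0.598). In bulk RNA, fewer cells with a transcript and less transcript per cell cannot be told apart, so these levels cannot be assigned to a share of the undivided Eomes-TKO cells.

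Genes of the NF-kB feedback circuit leaned toward lower levels, with only Tnfaip3 passing the threshold. This list, like those below, was chosen with earlier results of these data known, and its counts include Tnfaip3. Of 21 genes listed as NF-kB feedback and targets, all of them tested, 1 fell (Tnfaip3), 20 had a negative difference and 10 (47.6%) had an unadjusted p under 0.05 and a lower level, beside 3.37% of all genes. Their median was −0.36, and 15 (71.4%) were lower in both Eomes-TKO libraries than in all GFP-negative ones, beside 10.8% of all genes. Nfkbia was at 172 and 192 CPM against 273, 283 and 334 CPM, a difference of −0.70 (SE 0.18, edgeR adjusted p = 0.362). Rel, an NF-kB subunit, was at 143 and 127 CPM against 230, 178 and 184 CPM (−0.54, SE 0.14), and Nfkb2, another subunit, at 67.5 and 68.1 CPM against 95.1, 104 and 92.3 CPM (−0.52, SE 0.19). None of these groups overlapped. Zc3h12a, an RNase that destroys inflammatory mRNAs, was at 92.1 and 68.2 CPM against 135, 115 and 113 CPM, and Birc2, a ubiquitin ligase below TNF receptors, at 114 and 92.5 CPM against 157, 128 and 141 CPM. The adhesion ligand Icam1 was at 23.74 and 30.03 CPM against 42.3, 49.7 and 31.7 CPM, close together at its nearest libraries. At the other end, Cyld, a deubiquitinase that also restrains NF-kB, differed by 0.04 and Bcl3 by −0.01. The list median ran only from −0.43 to −0.33 over all 15 settings, and was −0.35 without Eomes-TKO library 1 and −0.43 without library 2. Between the IgG groups, which share no library with this comparison, the same list had a median of 0.03.

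Immediate early genes showed a like lean. Of 26 genes listed, 23 were tested, 22 had a negative difference and none was called. At an unadjusted p under 0.05, 9 (39.1%) were lower, beside 3.37% of all genes. The median was −0.28, against −0.02 between the IgG groups. Junb, an AP-1 subunit, was at 1026 and 1193 CPM against 2041, 1995 and 1906 CPM, a difference of −0.84 (SE 0.19, edgeR adjusted p = 0.246). Csrnp1, an early nuclear protein, came closest to the threshold, at 89.8 and 80.5 CPM against 132, 135 and 162 CPM (−0.75, SE 0.14, edgeR adjusted p = 0.092). Gadd45b, a stress sensor upstream of p38, was at 13.0 and 15.6 CPM against 27.9, 33.0 and 29.4 CPM, and the small Maf protein gene Maff at 9.68 and 6.26 CPM against 21.1, 17.1 and 18.7 CPM. Klf4 and Nfil3 were also lower, by −0.81 and −1.50. Well-known members gave smaller values: Fos was at 324 and 329 CPM against 368, 432 and 452 CPM (−0.36), and Jun was at 457 and 561 CPM against 638, 613 and 606 CPM (−0.28). Egr1, counted in the list of antigen receptor response factors and not in this one, differed by −0.01. GFP-positive cells were low in several of these genes, with Junb at 543 to 647 CPM and Maff at 1.05 to 2.69 CPM.

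Among 15 antigen receptor response factors, 6 (40%) were lower at an unadjusted p under 0.05, beside 3.37% of all genes. Junb is in this list and in the immediate early list. Of the 15, 4 had a positive difference and Nr4a2 was the member called. Its relative Nr4a1 (Nur77), a usual readout of T cell receptor signal, was at 105 and 122 CPM against 173, 168 and 179 CPM, a difference of −0.61 (SE 0.12, edgeR adjusted p = 0.101). Nr4a3 was at 58.7 and 60.6 CPM against 96.8, 82.4 and 82.6 CPM (−0.55, SE 0.12). Other nuclear readouts of the same receptor gave no separation: Egr2 differed by 0.22, Egr3 by 0.33, Myc by 0.22 and Irf4 by −0.32, with a smallest edgeR adjusted p of 0.737 (Egr3). Cd69, an early surface marker of activation, was at 179 CPM in both Eomes-TKO libraries and at 196 to 223 CPM in GFP-negative cells (−0.20, SE 0.13).

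The Rgs, Dusp, Spry and Spred families, brakes on G protein and MAP kinase signals, were mixed. Of 21 members tested of 22 listed, 2 fell (Rgs1 and Dusp5), where 0.0356% of all genes were called lower. At an unadjusted p under 0.05, 7 (33.3%) were lower, beside 3.37% of all genes, and none was higher. The median was −0.11, and it was −0.31 without Eomes-TKO library 2. Rgs2, a brake on Gq, was at 45.0 and 46.1 CPM against 78.1, 67.4 and 81.7 CPM, a difference of −0.73 (SE 0.15, edgeR adjusted p = 0.194). Dusp4, a nuclear ERK phosphatase, was at 5.78 and 10.2 CPM against 13.1, 12.4 and 15.4 CPM (−0.74, SE 0.24). Dusp1 differed by −0.41, Dusp2 by −0.22, Rgs10 by 0.00 and Rgs19 by −0.03.

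**Figure D3:**
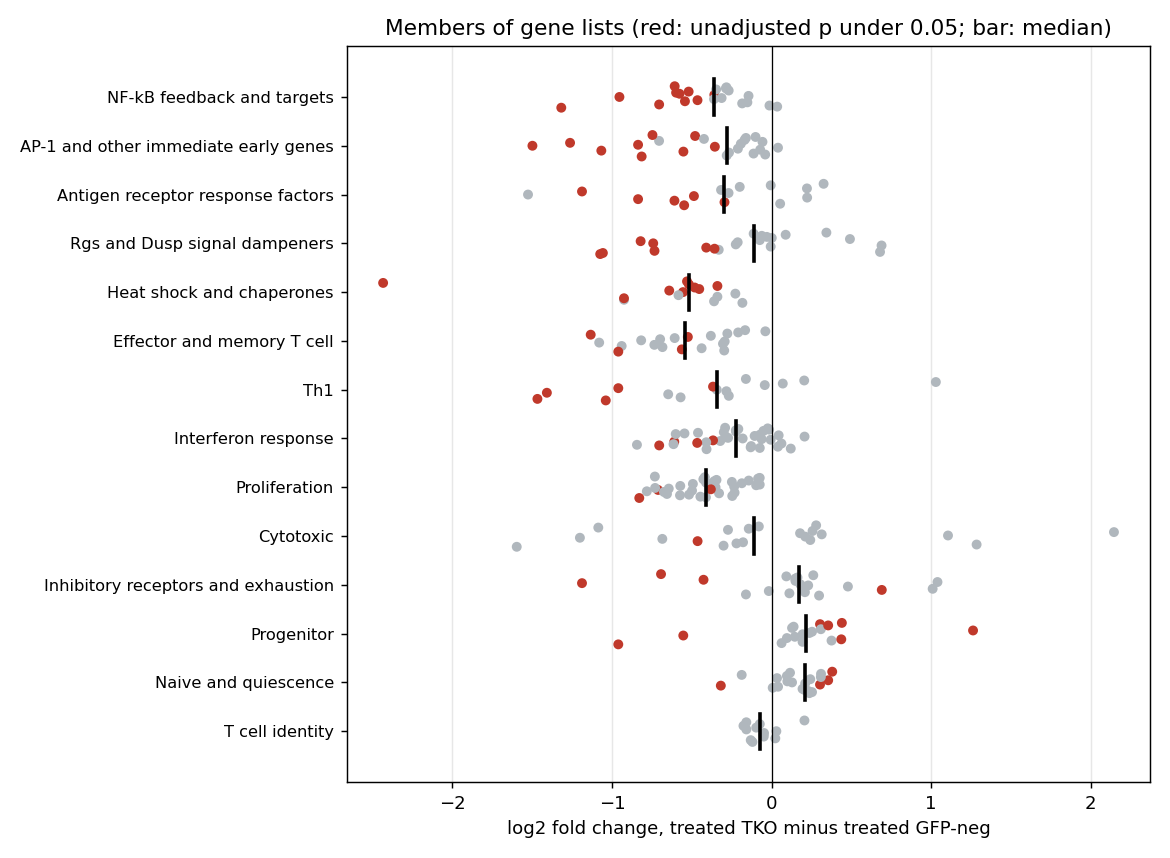
Log2 differences of treated Eomes-TKO minus treated GFP-negative cells (horizontal axis) for the members of 14 gene lists, 1 point per gene, red where the unadjusted p was under 0.05, with a bar at each list's median. Points of the NF-kB, immediate early, heat shock, effector and proliferation lists lie almost all left of 0, the naive list lies mostly right of it, and the T cell identity list has a median of −0.07.

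Heat shock genes and chaperones were lower in Eomes-TKO cells in a way that was also present after IgG. All 15 tested members of 16 had a negative difference, 9 (60%) at an unadjusted p under 0.05, beside 3.37% of all genes, and none was called. The median was −0.52 in treated cells and −0.55 between the IgG groups, where 5 members were lower at an unadjusted p under 0.05, beside 1.34% of all genes. Hspa5 (BiP), the chaperone of the endoplasmic reticulum, was at 378 and 435 CPM against 609, 608 and 685 CPM, a difference of −0.64 (SE 0.11, edgeR adjusted p = 0.070), and after IgG it differed by −0.18 (SE 0.11). Hsp90aa1 was at 193 and 257 CPM against 303, 358 and 315 CPM (−0.53, SE 0.14), and after IgG it differed by −0.56 (SE 0.14). As mean log2 CPM of the list, the treated Eomes-TKO libraries were at 5.66 and 6.15 and the GFP-negative ones at 6.39 to 6.72. The IgG libraries were at 5.61 to 6.20 for Eomes-TKO and at 6.44 and 6.45 for Eomes-GFP. The median was −0.35 without Eomes-TKO library 1 and −0.75 without library 2.

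Genes of the Th1 and interferon gamma axis leaned lower, again short of the threshold and mostly through Eomes-TKO library 1. Ifng, the effector cytokine of Th1 cells, was at 3.90 and 8.03 CPM against 12.7, 20.6 and 17.9 CPM, a difference of −1.47 (SE 0.29, edgeR adjusted p = 0.152). Bhlhe40, a factor needed for cytokine output in helper cells, was at 28.3 and 57.8 CPM against 101, 138 and 107 CPM (−1.41, SE 0.34, edgeR adjusted p = 0.362). Of 15 Th1 genes, 5 (33.3%) were lower at an unadjusted p under 0.05, beside 3.37% of all genes, and the median was −0.34. It was −0.16 without Eomes-TKO library 1 and −0.94 without library 2. As mean log2 CPM of the Th1 list, library 1 (4.12) was below the GFP-negative range of 4.80 to 5.29 and library 2 (4.97) inside it. Tbx21 (T-bet) was at 9.68 and 19.8 CPM against 27.0, 24.6 and 19.1 CPM, with library 2 inside the GFP-negative range. Of 35 interferon response genes, 30 had a negative difference and 4 (11.4%) were lower at an unadjusted p under 0.05, beside 3.37% of all genes. The median was −0.22, and it was −0.06 without Eomes-TKO library 1 and −0.38 without library 2. Mean log2 CPM was 5.63 in library 1 and 6.01 in library 2, against 5.84 to 6.23 in GFP-negative libraries. Between the IgG groups the interferon list had a median of 0.19. There, 3 members were higher in Eomes-TKO cells at an unadjusted p under 0.05, beside 241 of all 14059 genes, and 0 were lower. Among the interferon response genes Irf1, a target of interferon gamma and NF-kB, was at 234 and 263 CPM against 383, 382 and 372 CPM (−0.61, SE 0.12, edgeR adjusted p = 0.120). Other members of the list, picked after their values were seen, ranged from −0.70 for Igtp and −0.47 for Gbp7, which encode interferon-induced GTPases, to 0.12 for Ifit1 and 0.21 for Ifi44.

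For effector, cytotoxic and dividing-cell genes the 2 Eomes-TKO libraries gave different pictures. Mean log2 CPM of 33 proliferation genes was 3.41 in Eomes-TKO library 1 and 4.32 in library 2, against 4.27 to 4.44 in GFP-negative cells and 2.34 to 3.05 in the IgG groups. Library 1 was below every GFP-negative library and above every IgG library, and library 2 was within the GFP-negative range. Mki67 followed, at 65.4 and 190 CPM against 230, 226 and 151 CPM. All 33 had a negative difference, 3 (9.09%) of them at an unadjusted p under 0.05, beside 3.37% of all genes. Their median was −0.41, yet it was −0.04 without library 1 and −0.99 without library 2. Between the IgG groups the proliferation list had a median of −0.21. There, 5 members were lower in Eomes-TKO cells at an unadjusted p under 0.05, beside 1.34% of all genes. The 20 effector and memory genes, all with a negative difference, had a median of −0.54, which was −0.12 without library 1 and −1.11 without library 2. Cxcr3, a homing receptor of Th1 effector cells, shows the spread, at 16.7 and 52.9 CPM against 64.5, 81.3 and 61.3 CPM. For 20 cytotoxic genes the median of −0.11 turned from −0.75 without library 2 to 0.31 without library 1. Gzmk had 2 and 48 counts in the Eomes-TKO libraries against 9 to 15 in GFP-negative ones, and Gzmb was at 0.94 and 4.38 CPM against 3.42, 5.36 and 2.17 CPM. All 5 libraries were far below the 107 to 190 CPM of Gzmb in GFP-positive cells. No direction is given for the cytotoxic list, since it rests on which library is used.

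**Figure D4:**
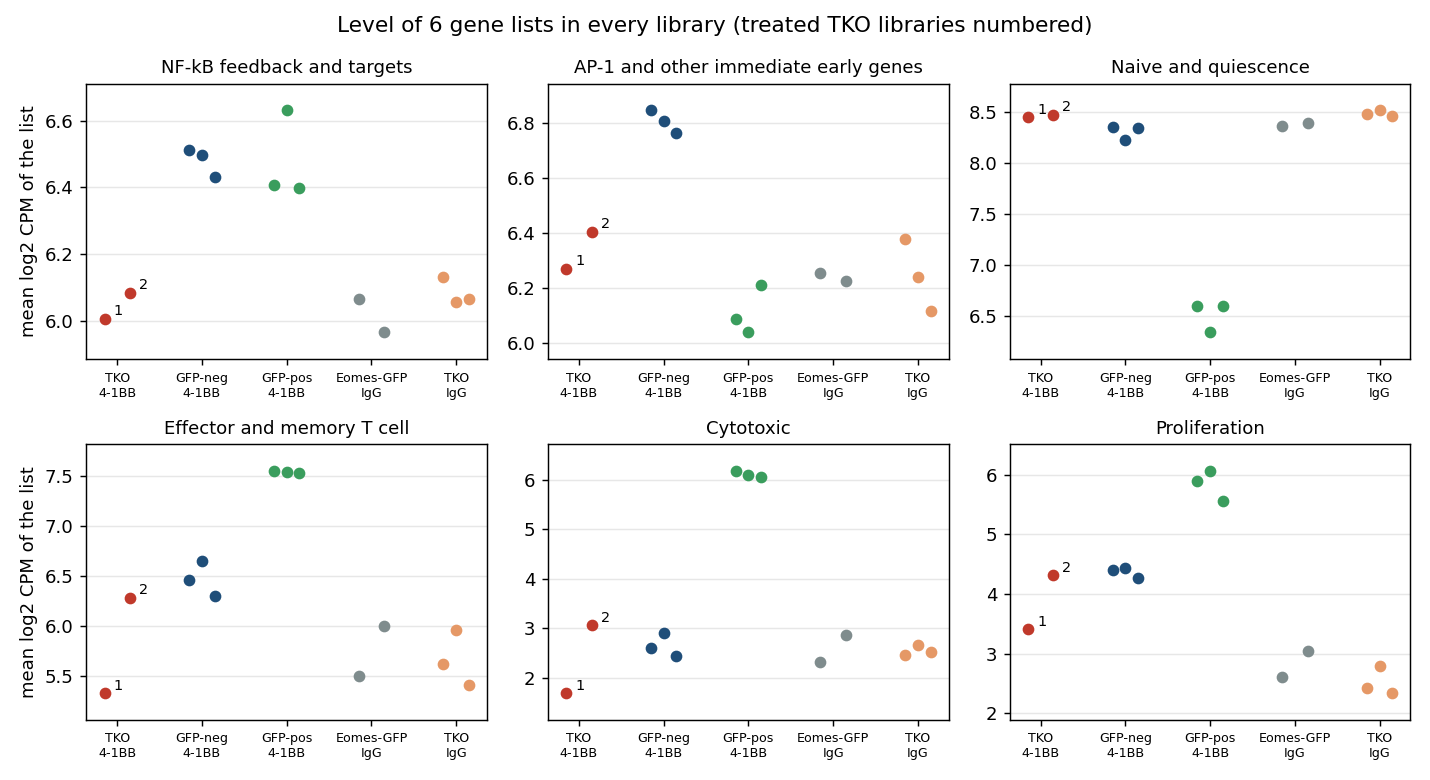
Mean log2 CPM of 6 gene lists in each of the 13 libraries, with the treated Eomes-TKO libraries numbered 1 and 2. For the NF-kB list both numbered points (6.01 and 6.08) lie in the range of the IgG groups and below the GFP-negative points (6.43 to 6.51), whereas for the effector, cytotoxic and proliferation lists library 2 lies higher than library 1, next to the GFP-negative points or above them.

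Genes of naive and quiescent T cells leaned upward by a small margin. Of 21 tested, 19 had a positive difference and none was called, with a median of 0.21 and 3 (14.3%) higher at an unadjusted p under 0.05, beside 3.6% of all genes, and 1 (4.76%) lower. The median was 0.12 without Eomes-TKO library 1 and 0.13 without GFP-negative library 2. Between the IgG groups the list median was 0.11. There, 2 members were higher in Eomes-TKO cells at an unadjusted p under 0.05, beside 241 of all 14059 genes. S1pr1, the receptor that lets T cells leave lymphoid tissue, was at 773 and 783 CPM against 652, 541 and 599 CPM, a difference of 0.38 (SE 0.11, edgeR adjusted p = 0.433). After IgG, S1pr1 differed between the lines by 0.46 (SE 0.11). Ccr7, a chemokine receptor for entry into lymph nodes, was at 361 and 366 CPM against 272 to 313 CPM, higher in both Eomes-TKO libraries than in any GFP-negative one. Tcf7, the factor of naive and progenitor T cells, was at 1579 and 2010 CPM against 1655, 1419 and 1442 CPM and did not separate the groups (0.25, SE 0.22). Slamf6, a marker of progenitor cells, was at 278 and 243 CPM against 284, 223 and 223 CPM (0.10, SE 0.16). Of 18 progenitor genes, some of them also in the naive list, 5 (27.8%) were higher at an unadjusted p under 0.05 (Ccr7, Myb, Bcl6 and Eomes among them) and 2 were lower (Cxcr3 and Icos). Eomes counts among the 5, but its reporter set the gate of the GFP-negative side only. The Eomes difference cannot be told apart from the gate and the line. Ccr9, a gut-homing receptor, was at 16.1 and 19.0 CPM against 9.76, 6.09 and 5.69 CPM (1.30, SE 0.34, edgeR adjusted p = 0.362). After IgG, Ccr9 differed by 0.60 (SE 0.33).

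Other helper programmes gave little separation. Of 20 inhibitory receptor and exhaustion genes, Nr4a2 among them, 15 had a positive difference, with a median of 0.17. At an unadjusted p under 0.05, 1 (5%) was higher and 3 (15%) were lower, beside 3.6% and 3.37% of all genes. The median was 0.38 without Eomes-TKO library 1 and −0.30 without library 2. Of the inhibitory receptors, Ctla4 was at 18.3 and 23.6 CPM against 37.1, 31.9 and 33.1 CPM (−0.69, SE 0.19, edgeR adjusted p = 0.362), whereas Pdcd1 differed by 0.18 and Lag3, at 6.403 and 20.9 CPM against 3.54, 11.9 and 5.69 CPM, overlapped. Icos, a costimulatory receptor, was at 64.7 and 97.2 CPM against 112, 127 and 119 CPM (−0.55, SE 0.17, edgeR adjusted p = 0.462). Tnfrsf9 itself was at 9.21 and 16.6 CPM against 10.4, 11.3 and 6.14 CPM, without separation. The Th2, Th17 and follicular helper lists had medians of −0.03, −0.24 and 0.13 with at most 1 member in a direction at an unadjusted p under 0.05. Without Eomes-TKO library 2 these medians were −0.35, −0.69 and −0.19, and without library 1 they were −0.01, 0.28 and 0.07. T cell identity genes (13, median −0.07), cytosolic ribosomal protein genes (30, median −0.17) and nuclear respiratory chain genes (27, median −0.13) had no member at it. These 3 medians turned with the library used: without Eomes-TKO library 1 they were 0.11, 0.11 and 0.15, and without library 2 −0.29, −0.44 and −0.46. Mitochondrially encoded transcripts (13, median −0.01) had none either, although their mean log2 CPM ranged from 6.37 to 9.26 over the 13 libraries and their median was 0.32 without Eomes-TKO library 1 and −0.50 without library 2.

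Some transcripts had like differences between the lines under both treatments, in comparisons that share no library, although none passed the threshold in both. Gm33707 had 136 and 91 counts in treated Eomes-TKO libraries and 73 to 147 in IgG ones, and was at 0 in all 8 Eomes-GFP libraries. That is at least 141-fold higher in treated Eomes-TKO than in GFP-negative cells, on a floor of 3 counts over the group. It is a processed pseudogene on chromosome 3 at 60769887-60770455 (GRCm38), and 11.1% of its 31-base words also occur in transcripts of Eno1, a glycolytic enzyme. Stt3b, a catalytic subunit of the N-glycosylation complex, was at 288 and 306 CPM against 166, 176 and 183 CPM after 4-1BB antibody, a difference of 0.76 (SE 0.14, edgeR adjusted p = 0.078). After IgG it was at 292 to 325 CPM in Eomes-TKO and at 209 and 167 CPM in Eomes-GFP cells, a difference of 0.73 (SE 0.14, edgeR adjusted p = 0.398). Stt3b lies on chromosome 9 at 115242581-115310421, 3.17 Mb from Eomes at 118478212-118486132. Of 75 tested genes within 5 Mb of Eomes, 7 had an unadjusted p under 0.05 in the treated comparison, beside 6.97% of all genes, and 2 of them, Stt3b and the zinc finger gene Zkscan7, also had an unadjusted p under 0.05 after IgG with the same sign. Itga9, an integrin subunit, had one with the opposite sign. Csrnp1, given above among the immediate early genes, lies 1.49 Mb from Eomes and is another of the 7.

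Sgsh, a lysosomal enzyme that degrades heparan sulfate, was at 79.5 and 77.0 CPM against 53.3, 50.7 and 54.1 CPM (0.57, SE 0.10, edgeR adjusted p = 0.070). After IgG it was at 72.5 to 79.9 CPM in Eomes-TKO and at 67.2 and 60.2 CPM in Eomes-GFP cells. Lman2l, a lectin of glycoprotein export, was at 18.7 and 20.9 CPM against 37.6, 30.8 and 33.4 CPM (−0.77, SE 0.14, edgeR adjusted p = 0.070), and after IgG at 32.0 to 34.3 against 47.2 and 44.3 CPM. Rpl35a-ps6 had 31 to 99 counts in GFP-negative libraries and 0 in the other 10, at least 33-fold lower in treated Eomes-TKO cells on the same floor. It is a ribosomal protein pseudogene whose 31-base words all occur in further copies, among them Rpl35a-ps2, which was at 3.28 and 5.53 CPM in treated Eomes-TKO cells and 0 in GFP-negative ones, so its level is uncertain. Over all genes, 77 had an unadjusted p under 0.05 in both genotype comparisons (63 in the same direction and 14 in opposite ones), which is 7.86% of the 980 in the treated comparison and 17.9% of the 430 after IgG. Of all genes tested, 6.97% had such a p in the treated comparison and 3.06% after IgG. The IgG comparison called 2 genes (0.0142%), both lower in Eomes-TKO cells, namely Eomes and the potassium channel gene Kcnc1. Of the 506 genes higher in treated Eomes-TKO cells at an unadjusted p under 0.05, 73.3% were positive after IgG, and of the 474 lower ones 58% were negative, where about 50% of all genes had either sign.

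**Figure D5:**
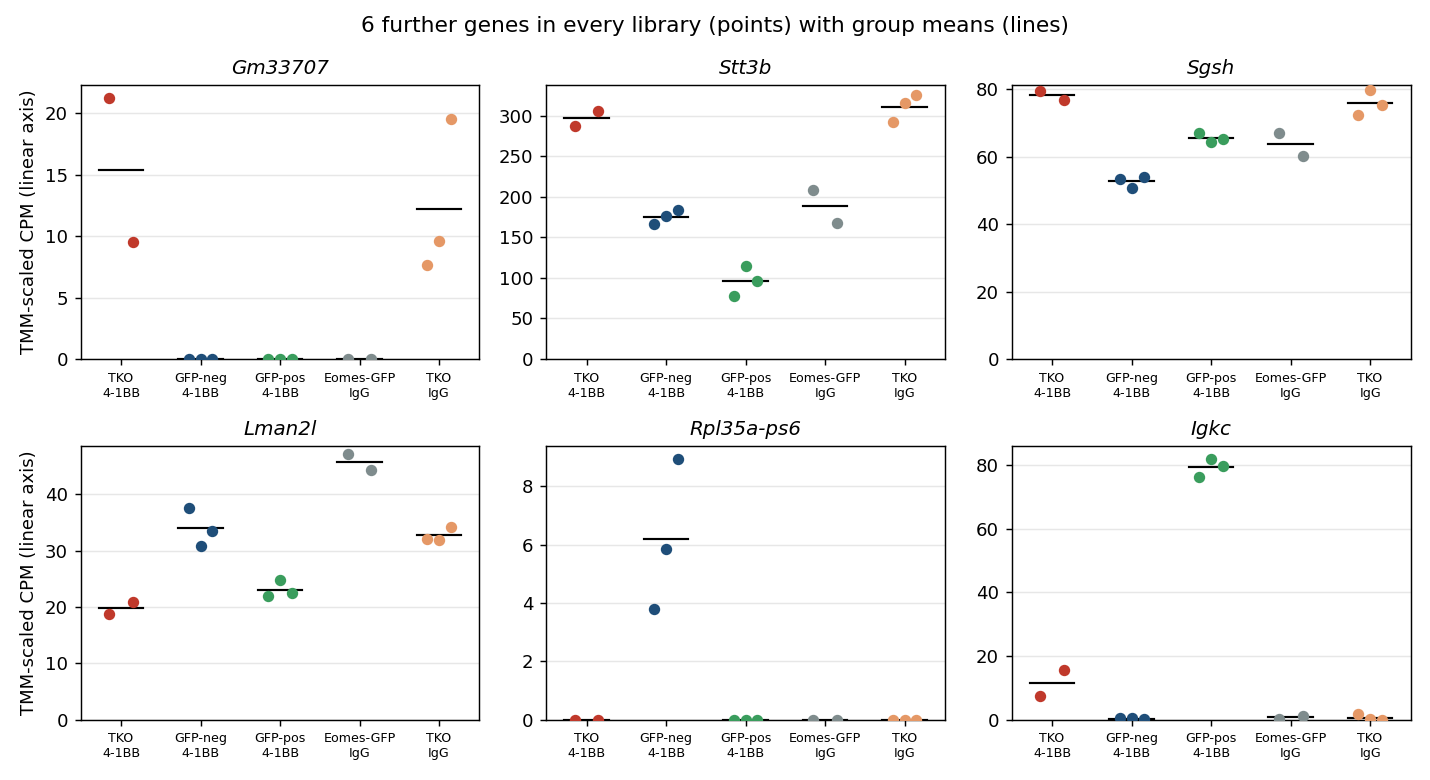
TMM-scaled CPM on a linear axis from 0 for 6 further genes, with 1 point per library and a line at the group mean. Gm33707 and Stt3b are high in the 5 Eomes-TKO libraries and lower or at 0 in the 8 Eomes-GFP libraries, Rpl35a-ps6 is above 0 in the 3 GFP-negative libraries alone, and Igkc is between 7.34 and 15.6 CPM in treated Eomes-TKO cells and near 80 CPM in GFP-positive cells.

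A pair of transcripts of antibody-secreting cells, picked after their values were seen, had high ratios that did not pass the threshold. Igkc, the kappa light chain constant region, had 47 and 150 counts against 4, 4 and 1, a ratio of 37.6 (95% counting interval 19.4 to 83.5, edgeR adjusted p = 0.070). Jchain, which joins secreted antibody units, had 30 and 31 counts against 1, 1 and 0, a ratio of 52.4 (95% counting interval 13.9 to 442, edgeR adjusted p = 0.152). The intervals cover counting error only. Igkc was at 76.1 to 82.0 CPM in GFP-positive libraries, where Jchain was at 0.55 CPM or less, so these transcripts did not go together across groups. Of 10 plasma cell and myeloma markers, summed CPM was 99.0 to 121 in Eomes-TKO and 113 to 121 in GFP-negative libraries, and the plasma cell receptor Tnfrsf17 was at 0 in all 5. Of 9 B cell markers, the sum was 10.9 to 18.7 against 15.7 to 20.4 CPM, with Blk at 0. Of 12 myeloid markers it was 27.0 to 40.6 against 31.1 to 54.8 CPM. Cd8a and Cd8b1 together summed to 9.53 to 11.4 against 6.77 to 12.3 CPM, while Cd8a alone was at 0.47 and 0.63 CPM against 0.81 to 2.44 CPM. Of 10 measured NK and innate-like T cell markers the sum was 31.9 to 34.2 against 18.7 to 39.8 CPM, with Klra7 and Klra8 at 0, and Klrb1c, which encodes the depleted antigen NK1.1, was at 3.75 and 4.28 CPM against 1.71, 1.95 and 0.81 CPM. Regulatory T cell genes summed to 195 to 291 against 252 to 297 CPM, and erythroid and platelet genes to 1.56 to 3.75 against 3.61 to 11.0 CPM. The sums overlapped between the sides for all of these lists, unlike the plasma cell and myeloma mean. The part of these lists in the called differences was not tested.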

How the data were processed

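RNA of sorted splenic CD4+ T helper cells was sequenced in 13 libraries of 5 groups, after depletion of ribosomal RNA per the labels' protocols. The authors made estimated counts per gene (expected counts, not whole numbers) with tools that include Salmon 1.5.2 and deposited them as 1 table, per the submitters' processing notes. Those notes also name GRCm39 as build and list STAR 2.7.10a, Trim Galore 0.6.7 and cutadapt 3.4, with no settings given in the sources used here. Of 47 library columns, 13 matched a sample and 34 were not used here. Counts were rounded and tested with edgeR 4.0.16 in R 4.3.3 (TMM, filterByExpr, robust quasi-likelihood test, all 13 libraries in 1 model of 5 groups with 8 residual degrees of freedom, two-sided, Benjamini-Hochberg threshold 0.05). Adjusted p-values are from this edgeR fit except where a different one is named beside the value. SE is that of the log2 fold change. Genes were named by rule: up to 15 called genes per direction by size of fold (mean log2 CPM of at least 2, groups not overlapping), the 10 smallest p-values, 10 preset genes, and in each list up to 6 called members or else the member of smallest p, with immunoglobulin, receptor segment and unnamed genes left out of the first 2 parts. All other genes in the text, Gm33707, Igkc and further list members among them, were chosen after their values were seen. The comparison, members and lists were chosen with earlier results of these data known. Alternatives were other normalizations and filters, DESeq2 1.42.0, limma-voom (limma 3.58.1), the 2 groups alone, blocks for replicate number or animal, leaving out each library, and a test against a fold of 1.5. A fit without the GFP-positive libraries was chosen after seeing the data. The test was tested on simulated data. Replicate libraries differed beyond counting noise (chi-square per degree of freedom 11.8 to 23.9). A library's 3 counts equal 0.271 to 0.468 CPM. Gene positions and 31-base words came from GENCODE M21 (GRCm38), which held 13737 of the 14059 tested genes, and promoters from RefSeq (GRCm38.p6), 250 bases before each start, printed without exons of the gene.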

Additional observations from a re-analysis of the deposited data

Results flagged for a closer look

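Eomes had opposite differences from the IgG controls on the sides of this comparison. Treated Eomes-TKO cells were above Eomes-TKO cells given IgG by 1.29 on the log2 scale, and treated GFP-negative cells were below Eomes-GFP cells given IgG by −2.61, with every library of each group on its side. The difference of these differences was 3.9 (edgeR adjusted p = 0.062), short of the threshold. The GFP gate removes cells by the Eomes reporter from the GFP-negative side only, so the gate and the line cannot be told apart here, and the Eomes-TKO levels rest on 13 to 77 counts per library.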

How the results depend on the processing

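The counts of calls moved with most choices, while the direction of Tnfaip3, Nr4a2, Dusp5, Rgs1 and Per1 did not change in any of 16 alternatives. They were called in 9, 4, 8, 10 and 10 of them. Against 1 gene higher and 5 lower, RLE size factors and the stricter filter gave the same counts. Upper-quartile scaling and a fold threshold of 1.5 gave 0 and 0 (990 and 179 genes at an unadjusted p under 0.05). No filter gave 74 and 146, DESeq2 11 and 41, the 2 groups fitted alone 4 and 5, limma-voom 1 and 6, and the animal as a block 1 and 6. The fit without the GFP-positive libraries gave 1 and 3 and kept 2 of the 6 calls. Leaving out a library gave 0 to 5 higher and 0 to 13 lower. The replicate number as a block gave 1 and 11 and kept 5 of the 6 calls, losing Nr4a2 (adjusted p = 0.0502). Same-numbered libraries share only a number (deviations correlated at 0.17 and 0.24 across genes), and the block is no evidence of pairing. Between the IgG groups, 2 genes were called, against 112 with no filter, 5 with DESeq2, 0 with limma-voom (449 at an unadjusted p under 0.05), 1 fitted alone, 0 with the animal as a block, 1 with the fold threshold and 0 to 5 leaving out a library. For the difference of differences, 0 became 1 with upper-quartile scaling, 87 with no filter, 1 with the stricter filter, 9 with DESeq2, 1 with the replicate block and 0 to 3 leaving out a library. Leaving out a library moved Slamf6 from −0.00909 (without Eomes-TKO library 1) to 0.219, and Gzmk from −2.10 (without Eomes-TKO library 2) to 1.84, so neither kept its sign. The causes of these changes were not tested. With 2 Eomes-TKO libraries that differ from each other, small differences and low counts are beyond the reach of this comparison.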
